A study of Rattus norvegicus with 22 samples.

Results

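The matrix metalloproteinases and their tissue inhibitors described here are 8 genes, Mmp2, Mmp7, Mmp9, Mmp11, Mmp14, Timp1, Timp2 and Timp3. They were chosen by name for their function, with earlier results of these data known, from the 17334 genes measured in rat kidney by RNA sequencing. All 8 had enough reads to be among the 12867 genes tested.

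Rats of the strain PKD/Mhm (Cy/+), in which 1 copy of the Cy mutation causes polycystic kidneys, were sampled at 8 months of age, and all 22 were male. The untreated control group held 6 rats. The treatments were human adipose-derived stromal cells (ASC), 2000000 per injection, given intraperitoneally (i.p. ASC, 6 rats) or intravenously (i.v. ASC, 6 rats), and the medium conditioned by these cells (ASC-derived CM, 4 rats). Injections were given once a month for 6 months, after which RNA of the snap-frozen left kidney was sequenced. The labels do not give the route of the CM. Every group carries the mutation, so the controls are diseased kidneys and no kidney without cysts enters any comparison. The donor cells are human, and how many remained in the kidney was not analysed here. Each library is a separate animal.

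Matrix metalloproteinases are zinc-dependent enzymes that cut collagens, basement membrane and other proteins outside the cell, and most are secreted as inactive precursors. The tissue inhibitors of metalloproteinases (TIMPs) bind the active site of these enzymes and block it. MMP14, which is anchored in the cell membrane, uses TIMP2 as a bridge to hold the precursor of MMP2 at the cell surface and activate it. In polycystic kidneys these enzymes and inhibitors are known from the remodelling of basement membrane around cysts and from interstitial fibrosis.

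Total estimated counts ran from 12195682 to 14734772 per rat, so the precision differed little by depth between rats. Markers of proximal tubule, thick ascending limb, principal cells, podocytes and endothelium were read in every rat. Urothelial markers, which belong to the lining of the renal pelvis, set apart 4 libraries. In i.v. ASC rats 1, 3, 4 and 5 the summed level of 5 urothelial genes was 231.6, 406.9, 18.69 and 97.39 CPM (counts scaled to a fixed library total), above all rats of the other groups, whose highest value was 11.7 CPM. Upk2, Upk3a and Krt5 of that list were at 0 in some rats. The i.v. ASC results are therefore given with and without these 4 rats, which leaves 2 rats in that group. In a whole-kidney sample, fewer cells of a type and less RNA per cell cannot be told apart.

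Levels are given as TPM, the deposited values scaled by transcript length and library total, which can be compared between genes. The inhibitors were the most abundant members. Over the 22 rats the median level was 166 TPM for Timp2, 155 TPM for Timp3 and 120 TPM for Timp1. Among the enzymes it was 61.4 TPM for Mmp14, 31.3 TPM for Mmp2, 27.9 TPM for Mmp7, 16.4 TPM for Mmp11 and 2.68 TPM for Mmp9. Some neighbours in this order did not separate from rat to rat. Timp2 was above Timp3 in 12 of 22 rats and Mmp2 above Mmp7 in 11, so neither pair has a fixed order. Timp3 was above Timp1 in 19 rats and Mmp7 above Mmp11 in 18. Timp1 was above Mmp14, Mmp14 above Mmp2 and Mmp11 above Mmp9 in all 22.

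The members differed much more in how far they varied between rats than in how far they varied between groups. The within-group standard deviation of log2 CPM was 1.27 for Mmp7 and 0.827 for Mmp9, which placed them at percentiles 99.2 and 96.4 of all genes tested. It was 0.599 for Mmp2, 0.432 for Timp1, 0.391 for Timp2 and 0.369 for Mmp14. Timp3 at 0.26 and Mmp11 at 0.20 stood near the median gene, at 0.228.

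**Figure D1:**
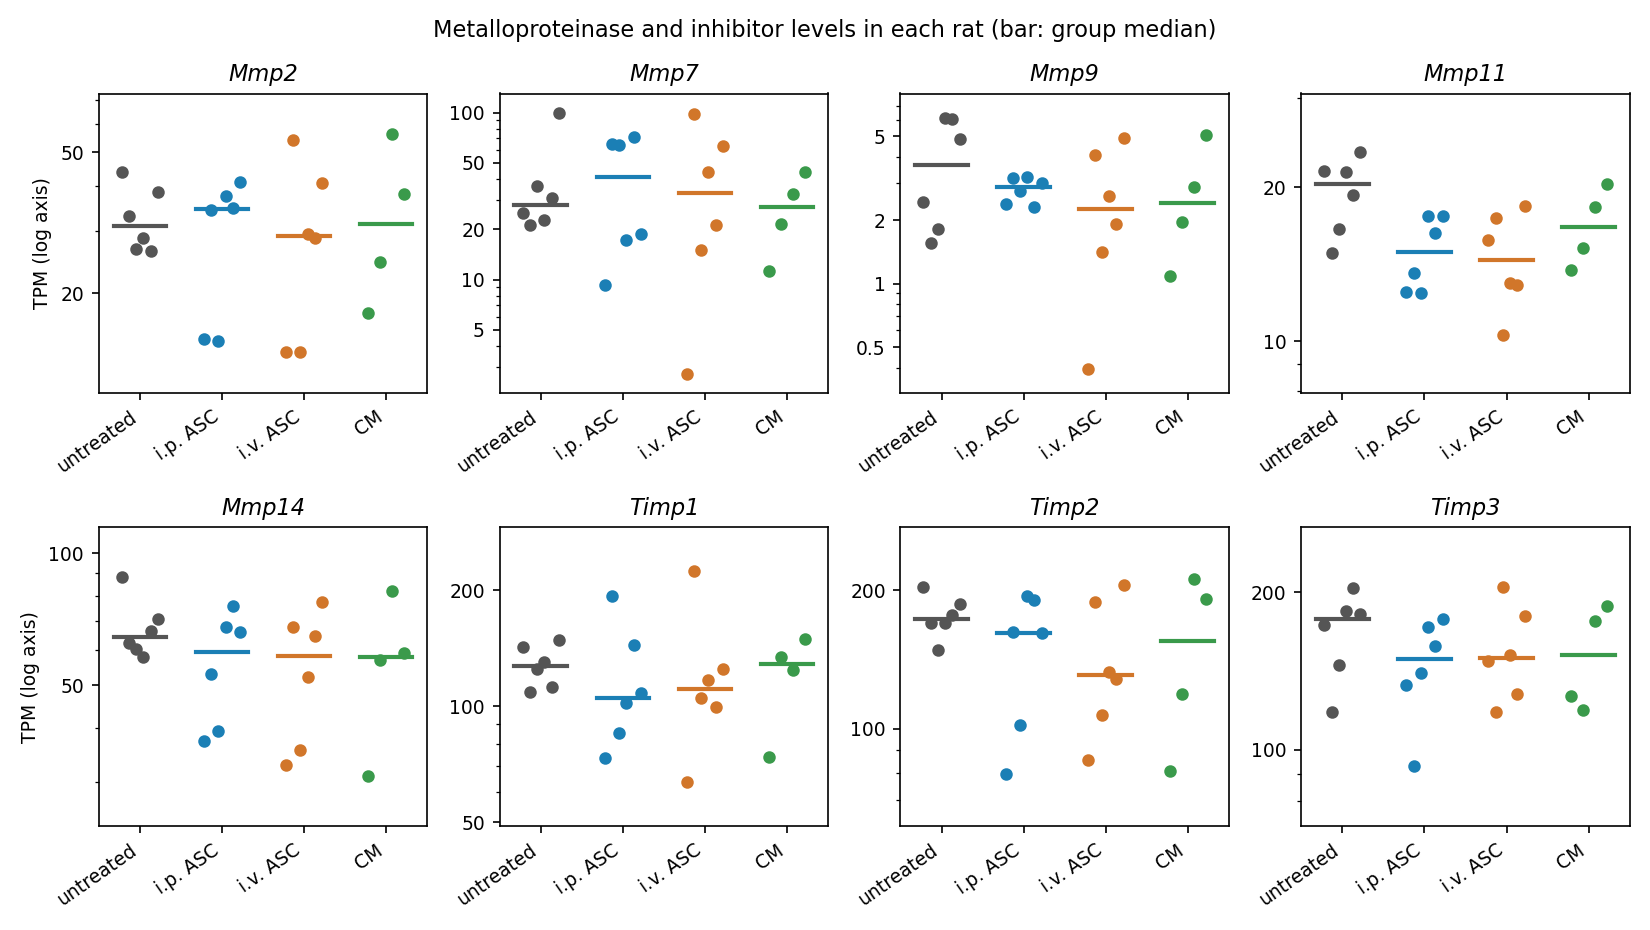
TPM of each member in each rat on a log axis, with rats grouped by treatment and a bar at each group's median (6 untreated, 6 i.p. ASC, 6 i.v. ASC and 4 ASC-derived CM rats). The groups overlap for all 8 genes, and the widest range is that of Mmp7, from 2.73 to 100 TPM.

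Across the 3 comparisons with untreated rats, which share the same 6 controls, no member passed the threshold of 0.05 on the Benjamini-Hochberg adjusted p from edgeR. After i.p. ASC this was 0 of 8 members, where 0% of the 12867 genes passed. After i.v. ASC it was 0 of 8 against 0% of genes, and after ASC-derived CM again 0 of 8 against 0%. DESeq2 also called 0 of 8 members in each comparison, while it called 0% of genes after i.p. ASC, 0.171% after i.v. ASC and 0.0389% after ASC-derived CM. Before adjustment, 1 of 8 members had an edgeR p under 0.05 after i.p. ASC, where 3.89% of all genes did, and 1 of 8 after i.v. ASC, where 8.81% did. That member was Mmp11 in both. After ASC-derived CM it was 0 of 8, where 6.6% of genes did. No member had treated and untreated rats that did not overlap, a pattern shown by 0.14% of genes after i.p. ASC, 0.179% after i.v. ASC and 1.42% after ASC-derived CM.

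Mmp2 (gelatinase A) cuts denatured collagen and type IV collagen. It ran in untreated rats from 26.3 to 43.9 TPM with a median of 30.9 TPM. It ran from 14.6 to 41.1 TPM after i.p. ASC (median 34.5 TPM) and from 13.6 to 54.0 TPM after i.v. ASC (median 29.0 TPM), and the CM rats had 17.6, 24.5, 56.3 and 38.1 TPM. Both the lowest and the highest rats were treated ones, and the controls lay inside the range of each treated group but i.p. ASC, where untreated rat 1 was the highest. From counts, the log2 fold change was -0.08 ± 0.32 for i.p. treatment, -0.03 ± 0.32 for i.v. treatment and 0.08 ± 0.35 for CM (mean and SE, the order used for each gene below). The edgeR adjusted p was 0.954, 0.973 and 0.988. The 95% intervals reach from -0.70 to 0.78 over these comparisons, which is the precision that this spread allows.

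Mmp7 (matrilysin) is a small secreted enzyme made mainly by epithelial cells and is known as a marker of injured tubules. It was the member with the widest range, 36.6-fold over all rats. Untreated rats ran from 21.1 to 36.4 TPM except for rat 6, which had 100 TPM, and their median was 27.9 TPM. It ran from 9.27 to 70.9 TPM after i.p. ASC (median 41.2 TPM) and from 2.73 to 98.4 TPM after i.v. ASC (median 32.8 TPM), and the CM rats had 11.3, 21.5, 32.6 and 44.3 TPM. Within the i.p. ASC group 3 rats lay between 63.8 and 70.9 TPM and the other 3 between 9.27 and 18.7 TPM. Its log2 fold changes were 0.13 ± 0.62, 0.16 ± 0.62 and -0.52 ± 0.70, with edgeR adjusted p of 0.962, 0.924 and 0.925. Untreated rat 6 decided these values, which were 0.67, 0.70 and 0.02 without it.

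Mmp9 (gelatinase B), an enzyme of leukocytes and other cells with substrates like those of MMP2, was the rarest member. Untreated rats had 1.56 to 6.14 TPM with a median of 3.66 TPM, in 47 to 175 reads. The i.p. ASC rats lay close together, from 2.30 to 3.19 TPM (median 2.88 TPM), whereas i.v. ASC rats ran from 0.395 to 4.91 TPM (median 2.26 TPM) and CM rats had 1.09, 1.97, 2.86 and 5.07 TPM. The controls fell on both sides of the i.p. ASC rats, 3 above them all and 2 below them all. The 3 log2 fold changes were -0.32 ± 0.42, -0.46 ± 0.42 and -0.40 ± 0.47, with edgeR adjusted p of 0.856, 0.637 and 0.911. All 3 are smaller than its rat-to-rat standard deviation of 0.827. The lowest rat, i.v. ASC rat 1, had 12 reads and moved the value of its group to -0.24 when left out.

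Mmp11 (stromelysin 3) is secreted in active form, unlike most of the family, and is known from stromal cells. Its 6 untreated rats had a median of 20.3 TPM and ran from 14.9 to 23.5 TPM. The i.p. ASC rats ran from 12.4 to 17.6 TPM (median 14.9 TPM), the i.v. ASC rats from 10.3 to 18.4 TPM (median 14.4 TPM), and the CM rats had 13.8, 15.2, 18.3 and 20.3 TPM. By normalized counts 6 of 6 i.p. ASC rats, 5 of 6 i.v. ASC rats and 3 of 4 CM rats were below the untreated median, and the ranges overlapped through the lowest controls. After i.p. ASC the log2 fold change was -0.29 ± 0.11, with a 95% interval from -0.516 to -0.0681 and an edgeR adjusted p of 0.771. After i.v. ASC it was -0.30 ± 0.11, with an interval from -0.525 to -0.0768 and an edgeR adjusted p of 0.523. These differences did not pass the adjustment for the number of genes tested. After CM the value was -0.14 ± 0.13 (edgeR adjusted p = 0.865). Leaving out 1 rat at a time kept the i.p. ASC value between -0.33 and -0.25 and the i.v. ASC value between -0.38 and -0.23, but without the 4 rats high in urothelial genes the i.v. ASC value was -0.05 ± 0.13 (edgeR adjusted p = 0.997).

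Mmp14 (membrane type 1 metalloproteinase) cuts fibrillar collagen and activates the precursor of MMP2. The controls ran from 58.1 to 88.2 TPM with a median of 64.3 TPM. It ran from 37.3 to 75.8 TPM after i.p. ASC (median 59.6 TPM) and from 32.9 to 77.4 TPM after i.v. ASC (median 58.4 TPM), and the CM rats had 31.0, 57.0, 81.8 and 59.2 TPM. The lowest control had 58.1 TPM, while each treated group held rats between 31.0 and 39.3 TPM beside rats at the level of the controls. Log2 fold changes of -0.18 ± 0.20, -0.20 ± 0.20 and -0.20 ± 0.22 had an edgeR adjusted p of 0.829, 0.658 and 0.898.

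Timp1 inhibits most secreted metalloproteinases and is known as a gene induced in injured kidney. Its untreated range was 109 to 149 TPM with a median of 128 TPM. It ran from 73.3 to 194 TPM after i.p. ASC (median 105 TPM) and from 63.4 to 225 TPM after i.v. ASC (median 111 TPM), and the CM rats had 73.6, 134, 124 and 150 TPM. Treated rats lay on both sides of the controls, so the spread was wider and the means were close. The differences from controls were -0.04 ± 0.24, 0.06 ± 0.24 and -0.06 ± 0.27 on the log2 scale, with edgeR adjusted p of 0.973, 0.923 and 0.988.

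Timp2 both inhibits metalloproteinases and takes part in the activation of MMP2 by MMP14. By the standard deviation of log2 CPM, at 0.142, it was the tightest member among the controls. Its level there was 148 to 203 TPM with a median of 174 TPM. It ran from 79.8 to 194 TPM after i.p. ASC (median 162 TPM) and from 85.3 to 205 TPM after i.v. ASC (median 131 TPM), and the CM rats had 80.8, 119, 211 and 191 TPM. The lowest rats of the treated groups, at 79.8 to 85.3 TPM, stood well under the lowest control, while the highest rats reached the level of the controls. On the log2 scale the differences were -0.18 ± 0.21, -0.21 ± 0.21 and -0.19 ± 0.23, with edgeR adjusted p of 0.84, 0.658 and 0.912.

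Timp3 is the inhibitor that binds to the extracellular matrix and also blocks ADAM17, the protease that releases TNF. The untreated rats had 118 to 204 TPM with a median of 178 TPM. It ran from 93.0 to 178 TPM after i.p. ASC (median 149 TPM) and from 118 to 205 TPM after i.v. ASC (median 150 TPM), and the CM rats had 127, 119, 176 and 188 TPM. Here the lowest treated rat was i.p. ASC rat 2, which was among the 5 lowest of no other member. In log2 units its differences were -0.11 ± 0.14, 0.01 ± 0.14 and -0.07 ± 0.16, with edgeR adjusted p of 0.852, 0.978 and 0.965.

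**Figure D2:**
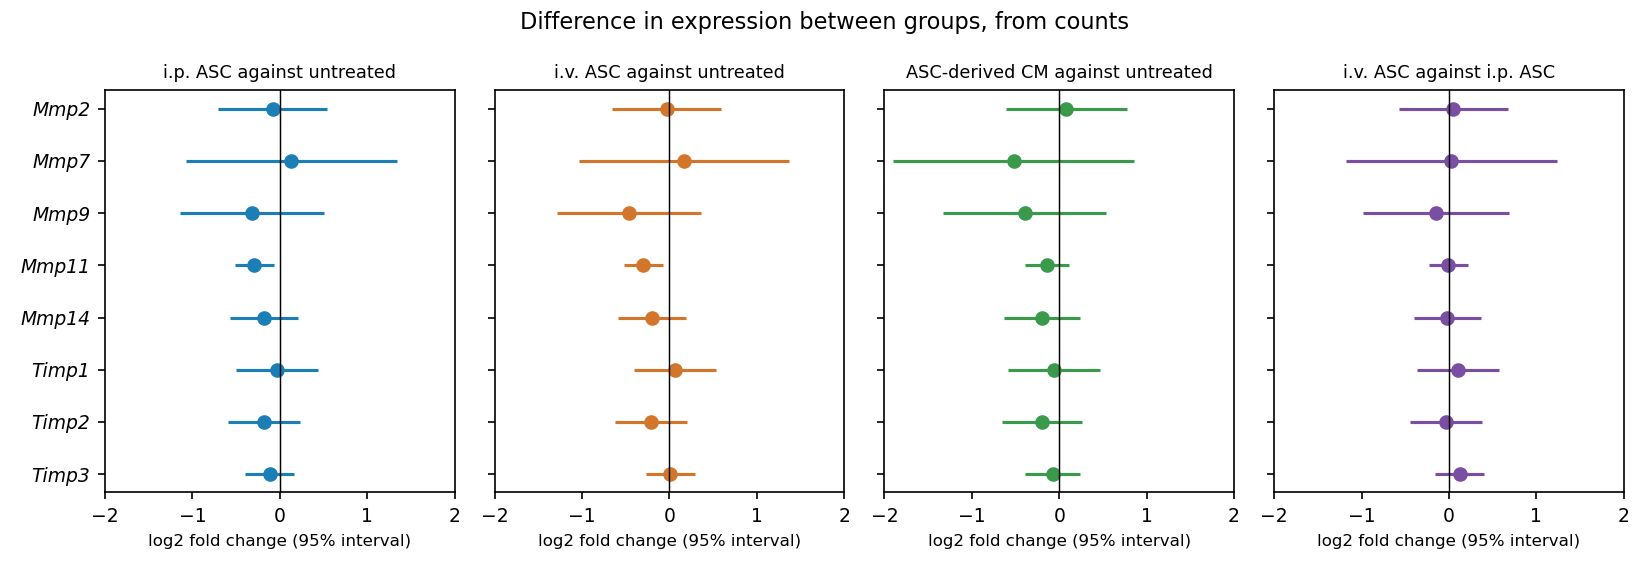
Log2 fold change of each member (points) with its 95% interval (lines, 1.96 SE) in the 3 comparisons with untreated rats and in the comparison of routes, from edgeR fits of counts over 22 rats. Only the intervals of Mmp11 after i.p. ASC and i.v. ASC lie wholly below 0, and neither passed the adjusted p of 0.05.

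The 5 enzymes and 3 inhibitors can also be read as 2 lists. The median log2 fold change of the enzymes was -0.18 after i.p. ASC, -0.20 after i.v. ASC and -0.20 after CM, beside -0.0139, -0.0109 and -0.00293 over all genes tested. In each of these comparisons 4 of 5 enzymes had a value below 0, although none passed the test, beside 53.8%, 52.5% and 50.9% of all genes. On the scale of log2(TPM + 1) it was 5 of 5 in each, but there the median of all genes lay lower too, at -0.0982, -0.117 and -0.0662. Without the 4 urothelial rats it was 1 of 5 for i.v. treatment. For the inhibitors the medians were -0.11, 0.01 and -0.07. Dividing the summed TPM of the 3 inhibitors by that of the 5 enzymes gave 2.18 to 3.53 in untreated rats, with the middle at 2.96. The median was 2.85 after i.p. ASC (2.46 to 3.74), 2.80 after i.v. ASC (2.20 to 5.48) and 3.13 after CM (2.66 to 3.76). These ranges overlap throughout, and without Timp3 the medians were 1.93, 1.92, 1.77 and 2.05 in the same order. With Timp3, the highest i.v. ASC ratios, 5.48 and 4.54, were those of the urothelial rats 3 and 1. The i.v. ASC rats 2 and 6, which were not high in urothelial genes, had 2.2 and 2.49.

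Between the 2 routes of injection, i.v. ASC against i.p. ASC, members differed by log2 values from -0.15 (Mmp9) to 0.12 (Timp3), and all 8 had an edgeR adjusted p of 1. Here 0 of 8 members passed, where 0% of genes passed by edgeR, 0.163% by DESeq2 and 2.18% before adjustment, and 0.0544% of genes had groups that did not overlap. The 95% interval was narrowest for Mmp11, from -0.23 to 0.22, and widest for Mmp7, from -1.18 to 1.24. Without the 4 i.v. ASC rats high in urothelial genes, the values rested on 2 i.v. ASC rats and were 0.69 ± 0.35 for Mmp2, 0.96 ± 0.66 for Mmp7, 0.63 ± 0.45 for Mmp9 and 0.57 ± 0.27 for Timp1. None of these passed the test either (edgeR adjusted p = 0.898 for each).

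The same omission moved the comparison of i.v. ASC with untreated rats. The log2 fold change became 0.62 ± 0.35 for Mmp2, 1.11 ± 0.66 for Mmp7, 0.33 ± 0.45 for Mmp9, 0.16 ± 0.23 for Mmp14, 0.54 ± 0.27 for Timp1, 0.23 ± 0.25 for Timp2 and -0.11 ± 0.19 for Timp3, with an edgeR adjusted p of 0.997 for each. Mmp2, Mmp9, Mmp14, Timp2 and Timp3 changed sign. The 2 remaining rats, i.v. ASC rats 2 and 6, had 54.0 and 40.8 TPM of Mmp2 and 98.4 and 62.7 TPM of Mmp7. The part of the urothelial signal in these differences was not tested.

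For most members the rats of a treated group were less alike than the controls were. The standard deviation of log2 CPM was larger than in untreated rats for 6 of 8 members after i.p. ASC, 8 of 8 after i.v. ASC and 6 of 8 after CM. For Timp2 it was 0.142 in untreated rats, 0.422 after i.p. ASC, 0.441 after i.v. ASC and 0.512 after CM. Those are ratios of 2.98, 3.11 and 3.61 to the controls, at percentiles 94.4, 93.7 and 96.8 of all genes tested. Timp1 had a ratio of 2.41 after i.p. ASC and 3.21 after i.v. ASC but 1.46 after CM. For Mmp2 the ratios were 2.11, 2.58 and 2.04. Wider spread was not particular to these genes, since 70.4%, 73.8% and 65.5% of all genes tested had a larger standard deviation than in the controls in the respective groups. Mmp9 went the other way after i.p. ASC, with 0.203 against 0.785 in controls, a ratio that only 0.241% of genes had or fell below. The other ratios under 1 were those of Mmp11 after i.p. ASC (0.787) and after CM (0.897) and of Mmp7 after CM (0.803). These spreads are described without a test.

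The low end of this spread was made up by the same animals in several genes. The 5 rats with the lowest TPM of Mmp2, of Mmp14 and of Timp2 were the same 5, i.p. ASC rats 1 and 3, i.v. ASC rats 1 and 3 and CM rat 1. None was a control. CM rat 1 was among the 5 lowest for 7 members, i.p. ASC rat 1 and i.v. ASC rats 1 and 3 for 6 each, and i.p. ASC rat 3 for 5, while every other rat was so for at most 2. In these rats Mmp2 lay between 13.6 and 17.6 TPM, Mmp14 between 31.0 and 39.3 TPM and Timp2 between 79.8 and 107 TPM. Timp3 did not follow, at 127 to 205 TPM. The same 5 rats had the 5 lowest sums of 10 fibroblast and myofibroblast markers (864 to 1190 CPM) and the 5 lowest sums of 8 macrophage markers (176 to 358 CPM). Their proximal tubule sums, 4440 to 6990 CPM, ranked from 16 to 22 of 22 counted from the lowest, and their thick ascending limb sums ranked from 15 to 22. By the mean of the 4 standardized thick ascending limb genes, however, i.p. ASC rat 1 was at -0.378. In i.p. ASC rat 3, i.v. ASC rats 1 and 3 and CM rat 1 that mean was 0.847, 0.433, 1.0 and 1.35. The same 5 rats also had the 5 highest sums of 4 fat cell markers (85.9 to 110 CPM, next highest 63.1 CPM), of which Plin1 was at 0 in some rats. The mean of the 2 standardized fat genes that were tested did not set them apart. By it i.p. ASC rat 1 (0.347) and i.v. ASC rat 1 (0.442) lay below other rats. Those were i.v. ASC rats 2, 4 and 5 (0.709, 0.694 and 0.64) and untreated rat 2 (0.517). The endothelial sums of the 5 rats, 197 to 292 CPM, ranked from 1 to 6. Only i.v. ASC rats 1 and 3 of them were high in urothelial genes. Whether tissue composition made these rats low was not tested.

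Covariation between members was measured over the 22 rats after removing each group's mean from log2 CPM, so that treatment differences do not enter. Of the 28 pairs of members, 12 passed an adjusted p of 0.05 by Pearson's r and 9 by both r and Spearman's rho (two-sided permutation tests, 100000 permutations of rats within groups, Benjamini-Hochberg adjusted over the 28 pairs). All 9 were positive. Such correlations are common in these kidneys, since 16.4% of all pairs of genes tested had an r at least as far from 0 as 0.562, the smallest that passed.

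The 3 strongest pairs joined Mmp2, Mmp14 and Timp2, the genes of the activation complex at the cell surface. For Mmp2 and Timp2, r was 0.924 and rho 0.92, for Mmp2 and Mmp14 0.902 and 0.866, and for Mmp14 and Timp2 0.896 and 0.86. The permutation p of r was 1e-05 for each, the smallest that these permutations can give (adjusted p = 9.33e-05). An r of 0.924 or higher was reached by 0.135% of all pairs of genes, one of 0.902 by 0.251% and one of 0.896 by 0.29%. Timp2 ranked 25 among all genes by its r with Mmp2. Without the 2 rats farthest from the median of the first gene the values were 0.904, 0.882 and 0.845. Over the 17 rats left without the 5 lowest ones they were 0.845, 0.675 and 0.648, and within the untreated rats alone they were 0.81, 0.816 and 0.855.

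These 3 genes also followed the fibroblast and myofibroblast markers, a score made of the mean of 10 standardized genes. Mmp2 had r = 0.968 and rho = 0.949 with that score, which 0.0389% of genes tested reached, Timp2 had 0.936 and 0.944 (0.272% of genes), and Mmp14 had 0.89 and 0.831 (1.43% of genes). Adjusted over the 96 relations of 8 members with 12 marker lists, the permutation p of r was 0.000384 for Mmp2 and Timp2 and 0.00064 for Mmp14. Once the fibroblast score was removed, the r of Mmp2 with Timp2 was 0.202, that of Mmp2 with Mmp14 was 0.358 and that of Mmp14 with Timp2 was 0.393. Removing the macrophage score in its place left 0.735, 0.758 and 0.743. The fibroblast score was not the only one that these 3 genes followed by both coefficients. With the macrophage score r was 0.835 for Mmp2, 0.855 for Timp2 and 0.749 for Mmp14, which 4.59%, 3.82% and 8.21% of genes reached. In the same order r was 0.754, 0.797 and 0.708 with the endothelial score and 0.728, 0.708 and 0.698 with the T cell score. Mmp14 went against the proximal tubule score (r = -0.695, rho = -0.676, permutation p of r = 0.00103, adjusted p = 0.00596), which 1.27% of genes reached in that direction. The genes most like Mmp2 among 12781 were Col3a1, a fibrillar collagen chain, and P3h3, a collagen prolyl hydroxylase, each at rho = 0.946. Col3a1 also stands in the fibroblast list, so it is not separate from that score. The genes most like Mmp14 were Tp53i11 at rho = 0.946 and Loxl2, a collagen crosslinking enzyme, at rho = 0.939. For Timp2 they were Lix1l at rho = 0.977 and Gpr176 at rho = 0.973.

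**Figure D3:**
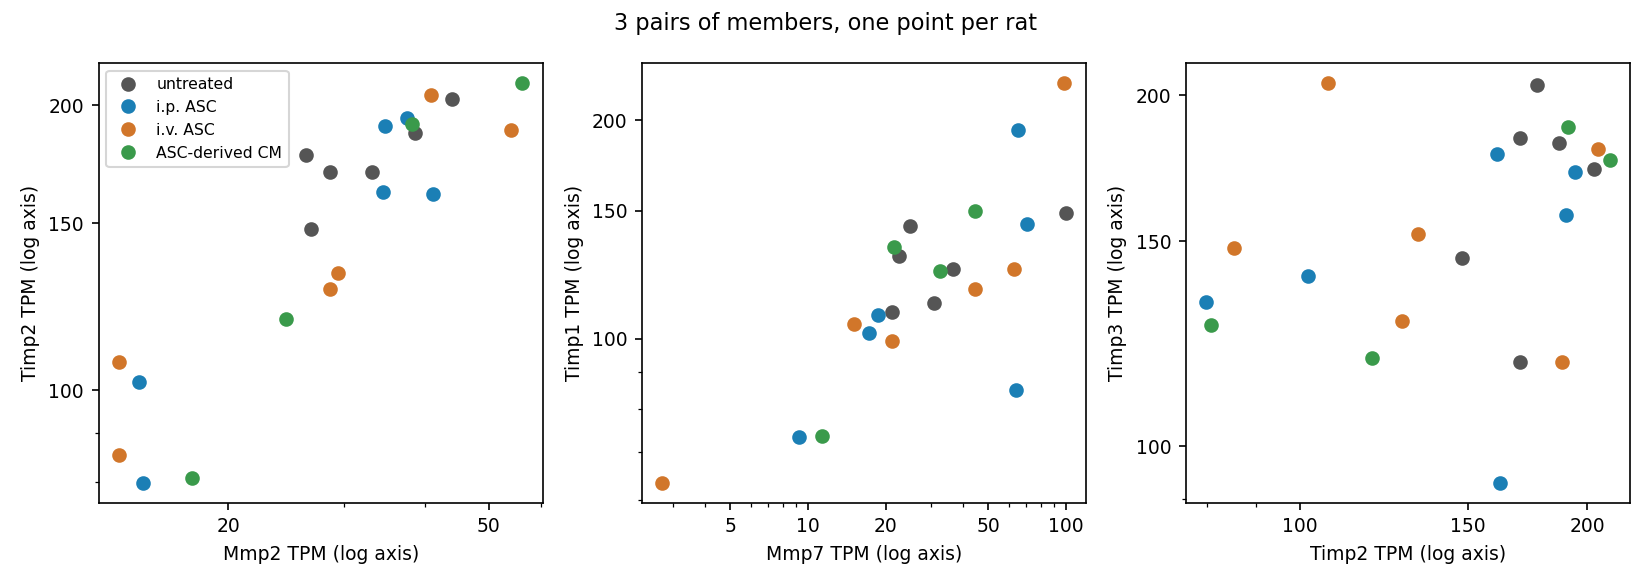
TPM of 3 pairs of members on log axes, 1 point per rat, coloured by group. Mmp2 and Timp2 rise together with 5 treated rats at the low end, Mmp7 and Timp1 rise together more loosely, and Timp2 and Timp3 show no common order.

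Mmp7 and Timp1 were the next strongest pair, without being separate from the others. Timp1 also passed by both coefficients with Mmp2 (r = 0.718), Timp2 (r = 0.695) and Mmp14 (r = 0.634). For Mmp7 and Timp1 r was 0.79 and rho 0.697 (permutation p of r = 0.00054, adjusted p = 0.00378), and 1.51% of all pairs of genes reached that r. It was 0.614 without the 2 farthest rats and 0.626 over the 18 rats without the urothelial ones. Removing the macrophage score left 0.368 and removing the fibroblast score left 0.681. Mmp7 followed the neutrophil markers (r = 0.866, rho = 0.835, permutation p of r = 1e-05, adjusted p = 0.000384), which 0.0699% of genes tested reached, and that score rests on 5 genes, since Mpo, Elane and Camp were at 0 in some rats and were not tested. Mmp7 also followed the macrophage score (r = 0.813, rho = 0.732, permutation p of r = 0.00013, adjusted p = 0.00139), which 5.5% of genes reached, and the injured tubule score (r = 0.572, rho = 0.586, permutation p of r = 0.0152, adjusted p = 0.0396), which 4.26% reached. The genes most like Mmp7 were Cxcl2, a chemokine that attracts neutrophils, at rho = 0.887 and Csf3r, the receptor of granulocyte colony-stimulating factor, at rho = 0.877. Csf3r also stands in the neutrophil list. Timp1 followed the markers of injured tubule (r = 0.806, rho = 0.817, permutation p of r = 2e-05, adjusted p = 0.000384), which 0.179% of genes reached, and it followed the macrophage score (r = 0.82, rho = 0.693, permutation p of r = 0.00018, adjusted p = 0.00152), which 5.16% of genes reached. With the neutrophil score it had r = 0.769 and rho = 0.698 (permutation p of r = 0.00019, adjusted p = 0.00152), which 0.249% of genes reached. The genes most like Timp1 were Tax1bp3 at rho = 0.921 and Arhgap11a at rho = 0.904.

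The start regions of Mmp7, Timp1 and Timp2 are shown because these genes take part in the strongest pairs. The sequences are the 250 bases upstream of the RefSeq start in the rat assembly GRCr8, which is not the build of the count files, each given 5′ to 3′ on the strand of its gene. Mmp7 lies on the plus strand at chr8:13132793-13133042, Timp1 on the minus strand at chrX:3771123-3771372 and Timp2 on the minus strand at chr10:104089215-104089464. The letters searched on both strands were TGANTCA for the AP-1 site, TATAAA for the TATA box and GGGCGG for the GC box, and capitals mark the matches, which do not overlap.
Mmp7: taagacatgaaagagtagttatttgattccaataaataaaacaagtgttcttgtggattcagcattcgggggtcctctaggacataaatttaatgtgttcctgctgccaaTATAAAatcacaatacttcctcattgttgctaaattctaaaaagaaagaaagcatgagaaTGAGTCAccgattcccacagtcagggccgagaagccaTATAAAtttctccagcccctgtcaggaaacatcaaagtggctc
Timp1: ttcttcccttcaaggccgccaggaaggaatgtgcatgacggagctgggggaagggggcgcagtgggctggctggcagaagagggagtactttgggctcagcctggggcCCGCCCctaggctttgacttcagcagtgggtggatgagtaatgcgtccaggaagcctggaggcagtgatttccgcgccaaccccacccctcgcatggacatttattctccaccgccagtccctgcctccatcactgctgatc
Timp2: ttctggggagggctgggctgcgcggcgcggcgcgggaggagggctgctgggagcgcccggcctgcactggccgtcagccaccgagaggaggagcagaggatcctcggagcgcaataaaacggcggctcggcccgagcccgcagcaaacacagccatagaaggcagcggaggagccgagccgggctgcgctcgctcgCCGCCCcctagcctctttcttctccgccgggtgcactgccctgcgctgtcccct

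Windows of 300 bases, which add 50 bases after the start, were searched for the 5 members with an entry in the table of promoter sequences used here, Mmp7, Mmp11, Timp1, Timp2 and Timp3. The AP-1 letters, which the dimers of Fos and Jun bind, occurred in Mmp7 only, 80 bases before the start, and 7.33% of 27457 promoters hold them. Near matches to these letters were not counted, such as tgagtaa in the Timp1 sequence above. The search therefore does not show that the other windows lack an AP-1 site. Mmp7 also held the TATA letters, 43 and 140 bases before the start, which 14.3% of promoters hold. The GC box letters, a motif bound by Sp1, occurred 4 times in Mmp11, 3 times in Timp3 and once each in Timp1 and Timp2 but not in Mmp7, and 34.9% of promoters hold them. A match describes the letters and is not a measured binding site, and none of these windows was assayed here.

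Mmp9 had its highest r with macrophage, podocyte and neutrophil markers, but not with these alone. It followed the macrophage score (r = 0.766, rho = 0.73, permutation p of r = 0.00013, adjusted p = 0.00139) and the podocyte score (r = 0.746, rho = 0.767, permutation p of r = 0.00017, adjusted p = 0.00152), which 7.45% and 4.1% of genes tested reached. The podocyte relation was not particular to Mmp9, since Timp2 had r = 0.75 with that score (3.93% of genes) and Mmp2 had r = 0.616 (11.8% of genes). Without the urothelial rats the r of Mmp9 was 0.497 with the macrophage score and 0.707 with the podocyte score. Its relation with the neutrophil score (r = 0.704, rho = 0.698, permutation p of r = 0.00049, adjusted p = 0.00362) was reached by 0.832% of genes, and r was 0.513 without those rats. Mmp9 also passed by both coefficients with the fibroblast score (r = 0.571, 19.3% of genes) and the endothelial score (r = 0.544, 17.0%). It went against the thick ascending limb score (r = -0.561, 5.62%) and the fat score (r = -0.587, 9.25%), by both coefficients too. With the T cell score Mmp9 passed by r (0.59) but not by rho, and r was 0.0911 without the urothelial rats. Ptpro, a phosphatase of podocytes, was the gene most like it at rho = 0.896, followed by Adap2 at rho = 0.88. Its pair with Mmp7 had r = 0.687 and rho = 0.613 (permutation p of r = 0.00197, adjusted p = 0.00932), but r was 0.287 without the urothelial rats and 0.411 without the 2 farthest rats, while it was 0.987 among the 6 i.v. ASC rats, so it rests on those rats. Its pair with Timp2 behaved alike, with r = 0.6 overall and 0.32 without the urothelial rats.

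Mmp11 was tied to markers of several compartments. It went against the thick ascending limb score (r = -0.699, rho = -0.70, permutation p of r = 0.00118, adjusted p = 0.00596), which 1.13% of genes reached in that direction, and with the endothelial score (r = 0.68, rho = 0.633, permutation p of r = 0.00138, adjusted p = 0.00662), which 7.96% of genes reached. With the endothelial score r was higher for Timp2 (0.797), Mmp2 (0.754) and Mmp14 (0.708). The genes most like Mmp11 were Fam151a at rho = 0.848 and Slc5a12, a lactate transporter of the proximal tubule, at rho = 0.835. With the proximal tubule score of 7 genes, however, Mmp11 had r = 0.1 and rho = 0.171. That relation passed by neither coefficient, and 37.9% of genes reached its r. Mmp11 followed the fibroblast score (r = 0.555, rho = 0.537, permutation p of r = 0.0148, adjusted p = 0.0396), which 20.2% of genes reached. Its pair with Mmp2 passed by Pearson's r (0.562, permutation p = 0.0194, adjusted p = 0.0454) but not by rho (0.486, adjusted p = 0.0931), and r was 0.612 without the urothelial rats and 0.674 on log2(TPM + 1). No pair of Mmp11 passed by both coefficients, and its highest rho was that with Timp2, at 0.514. The pairs of Mmp2 with Mmp7, Mmp2 with Mmp9, Mmp7 with Mmp14 and Mmp9 with Mmp14 passed by neither.

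No pair of Timp3 with another member passed by either coefficient. Its 7 values of r ran from -0.336 with Timp1 to 0.138 with Mmp9, and none of its 12 relations with marker lists passed by both coefficients. With Mmp9 r was 0.808 in untreated, -0.606 in i.p. ASC and -0.213 in i.v. ASC rats alone. Without the urothelial rats r with the marker scores ran from -0.531 (injured tubule) to 0.638 (podocyte), beside -0.458 and 0.31 over all rats. With the endothelial score it was 0.622, beside 0.191. These values without the urothelial rats were not tested. The genes most like Timp3 were Nploc4 at rho = 0.86 and Phactr1 at rho = 0.852.

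**Figure D4:**
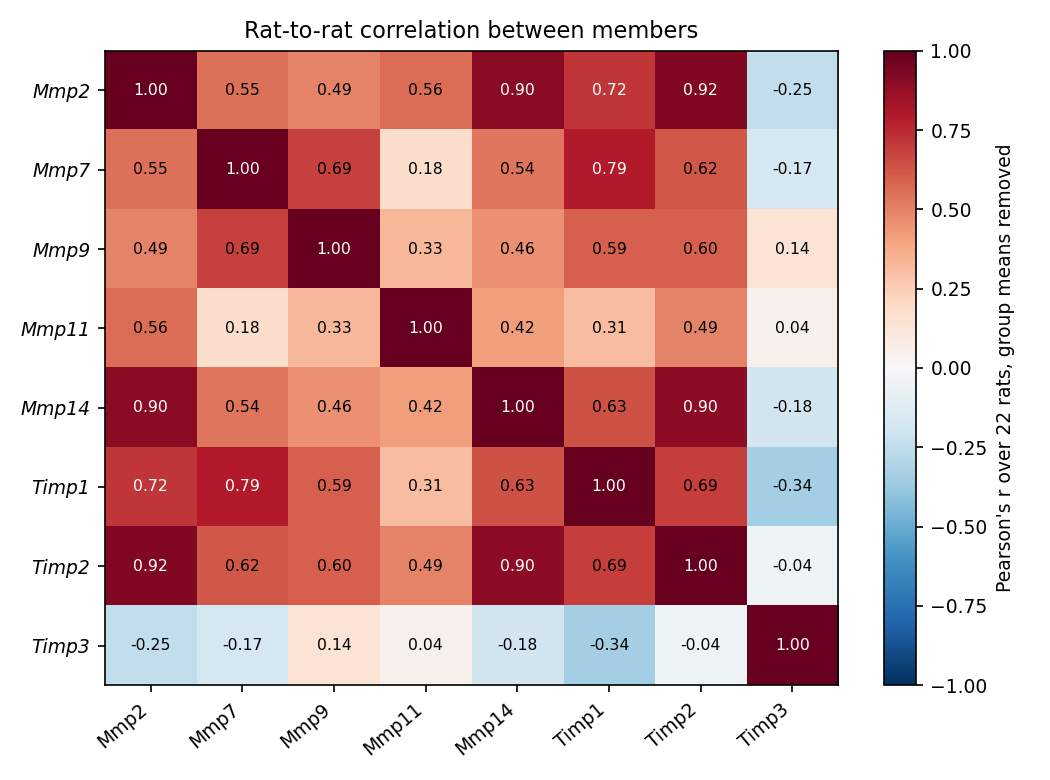
Pearson's r of log2 CPM between each pair of members over 22 rats with group means removed, printed in each cell and coloured from -1 (blue) to 1 (red). Mmp2, Mmp14 and Timp2 form the darkest block, from 0.90 to 0.92, and the row of Timp3 stays between -0.34 and 0.14.

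**Figure D5:**
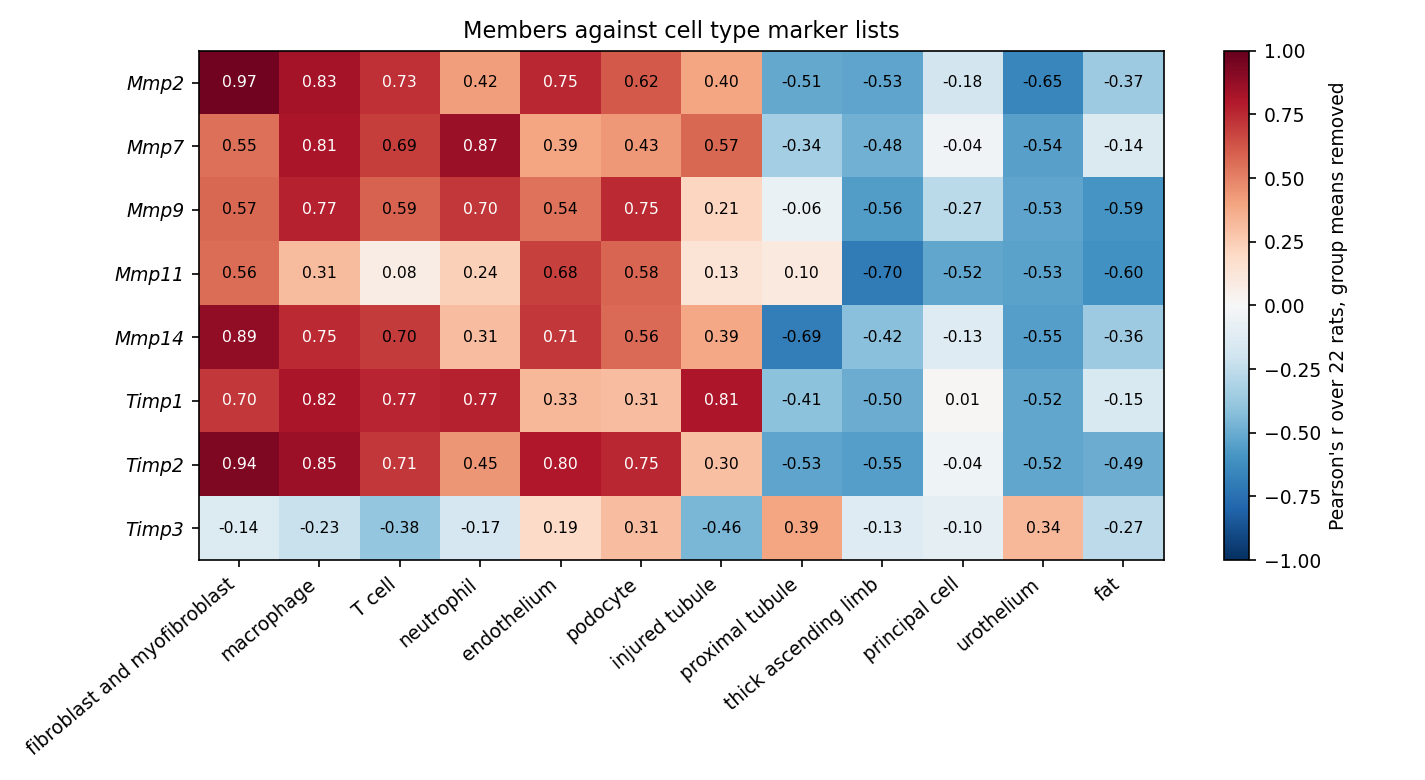
Pearson's r of each member with 12 cell type marker scores over 22 rats with group means removed, on the same colour scale. Mmp2, Mmp14 and Timp2 are highest with fibroblast and myofibroblast markers, Mmp7 with neutrophil markers, and Timp3 lies between -0.46 and 0.39.

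Other genes of the same system were read from lists chosen by function. Of 17 further metalloproteinases, 16 were in the files and 9 were tested, and the other 7 never exceeded 17 reads in a rat. Mmp15 (median 33.5 TPM), Mmp23 (20.8 TPM) and Mmp12 (20 TPM) were the most abundant of them. None passed the adjusted p in any comparison. The smallest unadjusted p after i.v. ASC was that of Mmp28, an enzyme of epithelia, at a log2 fold change of 0.95 ± 0.35 (edgeR adjusted p = 0.523). Its i.v. ASC range was 0.744 to 3.62 TPM against 0.751 to 1.74 TPM in controls, and without the 4 urothelial rats the fold change was 0.13 ± 0.44. Mmp28 also had the smallest unadjusted p for i.v. against i.p. ASC, at 0.825 ± 0.353 (edgeR unadjusted p = 0.0294). That value was -0.00207 ± 0.447 without the urothelial rats. Among the other inhibitors Timp4, Reck and A2m, all 3 had values below 0 after i.p. ASC, and the smallest unadjusted p was that of Timp4 after CM, at -0.37 ± 0.17 (unadjusted p = 0.0348, edgeR adjusted p = 0.711).

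Of 15 tested genes for activation, binding and clearance of metalloproteinases, none passed. Pcsk6, a proprotein convertase that cleaves precursor enzymes, had the smallest unadjusted p after i.v. ASC (log2 fold change 1.60 ± 0.47, edgeR adjusted p = 0.523) and after CM (1.63 ± 0.51, edgeR adjusted p = 0.711). Controls had 1.04 to 1.58 TPM of it, i.v. ASC rats 1.34 to 12.0 TPM and CM rats 1.79 to 6.69 TPM, so that CM and control rats did not overlap. By log2 CPM, 1 of these 15 genes had CM and control rats that did not overlap, beside 1.42% of all genes tested. Without the urothelial rats the i.v. ASC value of Pcsk6 was 0.40 ± 0.45. For i.v. against i.p. ASC, Pcsk6 was at 1.23 ± 0.463 (edgeR unadjusted p = 0.0151), and at 0.00644 ± 0.455 without the urothelial rats. Thbs1, a matrix glycoprotein that activates TGF-beta, had the smallest unadjusted p after i.p. ASC at -0.76 ± 0.29 (edgeR adjusted p = 0.771).

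None of 14 tested ADAM and ADAMTS proteases, 14 substrates and 17 regulators passed either. In the substrates Col4a1, a basement membrane collagen chain, was at -0.52 ± 0.19 after i.v. ASC (edgeR adjusted p = 0.523) but -0.13 ± 0.23 without the urothelial rats, and Cdh1, the cadherin of epithelia, at -0.34 ± 0.11 after CM (edgeR adjusted p = 0.711). Cdh1 ran from 84.9 to 120 TPM after CM and from 121 to 144 TPM in controls. By log2 CPM, 1 of the 14 substrates had CM and control rats that did not overlap, beside 1.42% of all genes tested. Adam17 was at -0.19 ± 0.08 after i.v. ASC (edgeR adjusted p = 0.523) and -0.01 ± 0.09 without the urothelial rats. Etv4, an ETS transcription factor, was at -0.34 ± 0.145 after i.p. ASC and -0.35 ± 0.145 after i.v. ASC, with edgeR adjusted p of 0.771 and 0.523, and the i.v. ASC value was -0.37 ± 0.22 without the urothelial rats.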

How the data were processed

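Kidney RNA of 22 PKD/Mhm (Cy/+) rats in 4 groups, taken from the sample labels, was analysed. The ABCB5+ cell groups and the further ASC-derived CM rats of the study were not analysed here. Sequencing of left kidney RNA by the authors used BGISEQ-500. The submitters' processing notes name Trim Galore 0.6.4, kallisto 0.4.6 and the genome build rn6. The deposited estimated counts are per rat gene and not normalized, and 14.1% were not whole, so they were rounded. The deposited TPM values, computed by the authors, are the same reads scaled by transcript length and total, and sum to 959754 to 968550 per rat. How reads shared between paralogs or overlapping genes were divided is not given in the sources used here. The RefSeq table of GRCr8, used for names and promoter sequences, gave a symbol to 17179 of 17334 genes.

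The quasi-likelihood F test of edgeR 4.0.16 (R 4.3.3) was applied to counts of 12867 genes kept by filterByExpr, with TMM factors, 1 fit of 4 groups and Benjamini-Hochberg adjustment. Intervals are 1.96 SE. Log2 CPM used a prior count of 2. On simulated counts with 100 genes changed 2-fold and 100 changed 4-fold, the test recovered 78 and 95 for i.p. ASC, 75 and 96 for i.v. ASC and 70 and 95 for CM, with 6, 6 and 4 false calls. The changed genes were drawn at random, kept their own dispersions and varied independently of other genes. The recovery therefore does not carry over to members such as Mmp7 and Mmp9, which varied more than most genes. Correlations used Python 3.11.15 and 100000 permutations of rats within groups. Alternatives were DESeq2 1.42.0, RLE size factors, 2 other filters, a fit of 2 groups, limma 3.58.1 on log2(TPM + 1) and log2(TPM + 0.1), a proximal tubule covariate and each rat left out. Omitting the rats high in urothelial genes, omitting the 5 rats lowest in Mmp2, Mmp14 and Timp2, and removing marker scores were chosen after seeing the data. The members, the gene lists and the tests were chosen with earlier results of these data known. Named were all 8 members, for each list and comparison the gene with the smallest unadjusted p if under 0.05, and the 2 genes most like each member by rho. Urothelial and other list genes at 0, and the list genes of highest TPM, were named after their values were seen. Nothing was paired, since each rat is in 1 group.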

Additional observations from a re-analysis of the deposited data

Results flagged for a closer look

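Of 32 groups of 4 to 6 rats tested for a rat far from the others, 2 had one, and chance alone gives about 1 in 20. Mmp7 in untreated rat 6 was at 5.875 log2 CPM, while the other 5 controls lay between 3.591 and 4.401. Its gap to the nearest control was 0.645 of the range of the group. Timp3 in i.p. ASC rat 2 was at 6.935 log2 CPM, while the other 5 rats of that group lay between 7.509 and 7.74, a gap of 0.713 of the range.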

How the results depend on the processing

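No member passed or lost the adjusted p of 0.05 under any alternative run, over which its edgeR, limma or DESeq2 adjusted p stayed between 0.266 and 1. The number of genes past it, 0 by edgeR in all 4 comparisons, was 22, 5 and 21 by DESeq2 for i.v. against untreated rats, CM against untreated rats and i.v. against i.p. treatment, and 1 for CM with only 2 groups in the fit. Leaving out 1 rat gave 0 to 14 genes for i.v. against untreated rats (11 without i.v. ASC rat 2, 14 without rat 6) and 0 to 13 for i.v. against i.p. treatment (13 without either of these rats). Several fold changes near 0 changed sign, and the cause was not tested. On log2(TPM + 1) they were -0.087 for Mmp7 in i.p. against untreated rats, -0.35 for Mmp7, -0.16 for Timp1 and -0.11 for Timp3 in i.v. against untreated rats, -0.052 for Mmp2 in CM against untreated rats and -0.034 for Mmp2 and -0.26 for Mmp7 in i.v. against i.p. treatment. On log2(TPM + 0.1) they were -0.10 for Mmp7 in i.p. against untreated rats, -0.41 for Mmp7, -0.16 for Timp1 and -0.11 for Timp3 in i.v. against untreated rats, -0.057 for Mmp2 in CM against untreated rats and -0.037 for Mmp2 and -0.31 for Mmp7 in i.v. against i.p. treatment. With the proximal tubule covariate it was 0.030 for Timp1 in CM against untreated rats. Without the 4 urothelial rats they were 0.62 for Mmp2, 0.33 for Mmp9, 0.16 for Mmp14, 0.23 for Timp2 and -0.11 for Timp3 in i.v. against untreated rats and 0.63 for Mmp9, 0.23 for Mmp11, 0.33 for Mmp14, 0.40 for Timp2 and -0.016 for Timp3 in i.v. against i.p. treatment. Leaving out each rat in turn moved the following across 0. This was, for i.p. against untreated rats, Mmp2 from -0.18 to 0.053, Mmp7 from -0.10 to 0.67, Timp1 from -0.25 to 0.044. This was, for i.v. against untreated rats, Mmp2 from -0.34 to 0.11, Mmp7 from -0.32 to 0.70, Timp1 from -0.21 to 0.20, Timp3 from -0.11 to 0.068. This was, for CM against untreated rats, Mmp2 from -0.20 to 0.26, Mmp7 from -0.77 to 0.021, Timp1 from -0.13 to 0.049, Timp3 from -0.16 to 0.023. This was, for i.v. against i.p. treatment, Mmp2 from -0.26 to 0.19, Mmp7 from -0.46 to 0.27, Mmp9 from -0.39 to 0.067, Mmp11 from -0.10 to 0.056, Mmp14 from -0.12 to 0.079, Timp1 from -0.18 to 0.31, Timp2 from -0.16 to 0.066, Timp3 from -0.00037 to 0.18. The r became 0.068 for Mmp2 and Timp3, 0.196 for Mmp14 and Timp3 and 0.286 for Timp2 and Timp3 on log2(TPM + 1). Of the 28 pairs, 23 had an r above 0. With the macrophage score removed it was 16, and r became -0.408 for Mmp2 and Mmp9, -0.39 for Mmp2 and Mmp7, -0.275 for Mmp9 and Mmp14, -0.247 for Mmp7 and Timp2, -0.184 for Mmp7 and Mmp14, -0.164 for Mmp9 and Timp2, -0.143 for Mmp7 and Mmp11, -0.092 for Mmp9 and Timp1, -0.0235 for Timp1 and Timp2, 0.0183 for Mmp7 and Timp3 and 0.303 for Timp2 and Timp3. With the fibroblast score removed it was 18, and r became -0.278 for Mmp2 and Mmp9, -0.198 for Mmp11 and Mmp14, -0.183 for Mmp7 and Mmp11, -0.136 for Mmp11 and Timp1, -0.135 for Mmp9 and Mmp14, -0.0837 for Mmp11 and Timp2 and 0.256 for Timp2 and Timp3. The r became 0.0522 for Mmp14 and Timp3 and 0.108 for Timp2 and Timp3 without the 4 urothelial rats. Over the 17 rats left without the 5 lowest in Mmp2, Mmp14 and Timp2, it became -0.263 for Mmp9 and Mmp14, 0.0532 for Mmp14 and Timp3 and 0.227 for Timp2 and Timp3. Without Timp3 the median ratio of inhibitors to enzymes was 1.93 in untreated, 1.92 in i.p. and 2.05 in CM rats. No paired analysis was possible because the labels give the rats of different groups no common numbers. Depth limits Mmp9 most, with 12 to 175 reads.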
